A study of Homo sapiens with 14 samples.

Results

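The 7 genes described here encode chemokines that draw lymphocytes: CCL5, CXCL9, CXCL10, CXCL11, CCL22, CX3CL1 and CXCL16. They were taken by name, as all 11 Affymetrix HG-U133 Plus 2.0 probe sets annotated to them, out of 54613 probe sets and 19775 named genes on the array. CCL5 had 3 probe sets, CXCL11 and CX3CL1 had 2 each, and the other 4 genes had 1 each. The genes were chosen by their differences between SRC-1 knockdown and control on these same arrays, so those differences are given as a description without a test, while the response to tamoxifen is tested.

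Chemokines are small secreted proteins that guide migrating leukocytes through G protein-coupled receptors. CXCL9, CXCL10 and CXCL11 are interferon-inducible ligands of CXCR3, the receptor of activated T cells and natural killer cells. CCL5 attracts T cells and monocytes, in part through CCR1. CCL22 is the ligand of CCR4 on regulatory and type 2 helper T cells. CX3CL1 and CXCL16 are unusual in being made as transmembrane proteins, which are released by the metalloproteases ADAM10 and ADAM17, and they bind CX3CR1 and CXCR6. In a breast tumour these proteins can come from the cancer cells as well as from the leukocytes and stroma around them, whereas the present measurements are of a cell line in culture.

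The cells were LY2, an endocrine-resistant line derived from the estrogen receptor-positive breast cancer line MCF-7. All cultures had been kept in 10 nM 4-hydroxytamoxifen, an active form of the anti-estrogen tamoxifen, then without it for 72 hours, and were transfected with 40 nM siRNA 24 hours before treatment. The siRNA was directed against SRC-1, the nuclear receptor coactivator encoded by NCOA1, or was a scrambled control, and treatment was 100 nM 4-hydroxytamoxifen or 0.01% ethanol, called untreated, for 2 hours. Control siRNA was measured on 4 untreated and 4 tamoxifen-treated arrays. SRC1 siRNA was measured on 4 untreated arrays and on 2 with tamoxifen, which carried replicate numbers 1 and 3. The series addressed which genes depend on SRC-1 in such resistant cells. All 14 arrays are of 1 cell line, and the labels call the replicates biological without naming separate cultures, so p-values measure the spread between these arrays.

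Values are deposited log2 signals, and a difference of 1 is a doubling of the signal. The array medians lay between 3.44 and 3.51, and 33.9% of all values were below 2.5, near a floor at about 2 where differences are compressed. Averaged over its 4 probe sets, NCOA1 was at 7.70 ± 0.36 (SD, n = 4) with SRC1 siRNA and 9.0 ± 0.25 (SD, n = 4) with control siRNA in untreated cells, 59.4% lower in signal (exact two-sided permutation test, p = 0.0286, the smallest that 4 against 4 allows). In tamoxifen-treated cells it was at 7.74 ± 0.25 (SD, n = 2) and 9.06 ± 0.18 (SD, n = 4), 60.0% lower (exact two-sided permutation test, p = 0.133, the smallest that 2 against 4 allows). All 8 luminal breast markers (KRT8, KRT18, KRT19, EPCAM, CDH1, ESR1, GATA3 and FOXA1) were above a log2 signal of 8 in every group.

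The upstream sequences of 4 of the 7 genes were found among the RefSeq promoters (GRCh38.p14), and they are shown because 3 of the genes lie close together on the genome and still differed widely in their values. CXCL9, CXCL10 and CXCL11 lie in 1 cluster on chromosome 4, with 15988 bases between the starts of CXCL9 and CXCL10 and 12573 bases between those of CXCL10 and CXCL11. CCL22 lies on chromosome 16, followed in RefSeq order by CX3CL1 and CCL17. The 250 bases before each start are given 5′ to 3′ on the gene's strand, for CXCL9 at chr4:76007510-76007759, CXCL10 at chr4:76023498-76023747 and CXCL11 at chr4:76036071-76036320 on the minus strand and CCL22 at chr16:57358533-57358782 on the plus strand. Capitals mark matches to an interferon-stimulated response element core (GAAANNGAAA), the NF-kB consensus, the interferon gamma-activated element GAS (TTCNNNGAA) or the AP-1 element (TGANTCA), each searched on both strands.
CXCL9: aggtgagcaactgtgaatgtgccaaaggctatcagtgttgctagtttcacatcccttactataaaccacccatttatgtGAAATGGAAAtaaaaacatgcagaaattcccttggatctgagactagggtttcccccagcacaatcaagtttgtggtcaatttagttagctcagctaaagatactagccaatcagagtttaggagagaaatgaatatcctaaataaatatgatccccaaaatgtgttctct
CXCL10: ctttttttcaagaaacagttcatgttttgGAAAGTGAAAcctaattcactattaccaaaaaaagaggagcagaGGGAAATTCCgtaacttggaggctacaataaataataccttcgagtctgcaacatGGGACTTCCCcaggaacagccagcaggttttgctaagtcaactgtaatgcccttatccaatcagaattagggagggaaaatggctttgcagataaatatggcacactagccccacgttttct
CXCL11: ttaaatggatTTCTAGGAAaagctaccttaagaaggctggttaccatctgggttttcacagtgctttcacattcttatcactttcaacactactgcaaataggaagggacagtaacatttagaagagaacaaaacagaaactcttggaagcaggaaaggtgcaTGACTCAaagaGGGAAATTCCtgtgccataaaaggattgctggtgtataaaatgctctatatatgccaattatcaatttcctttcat
CCL22: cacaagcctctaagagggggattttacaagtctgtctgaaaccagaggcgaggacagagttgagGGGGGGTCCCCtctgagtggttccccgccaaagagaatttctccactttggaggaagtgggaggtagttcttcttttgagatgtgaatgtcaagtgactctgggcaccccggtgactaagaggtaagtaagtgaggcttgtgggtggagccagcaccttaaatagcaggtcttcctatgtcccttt

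The interferon-stimulated element core was matched in CXCL9 by GAAATGGAAA, with its first base at -171 from the start, and in CXCL10 by GAAAGTGAAA at -221. NF-kB matches were GGGAAATTCC at -177 and GGGACTTCCC at -122 in CXCL10, GGGAAATTCC at -76 in CXCL11, and the overlapping GGGGGGTCCC at -186 and GGGGGTCCCC at -185 in CCL22. CXCL11 also held a GAS match, TTCTAGGAA at -240, and an AP-1 match, TGACTCA at -87. Of 35116 promoters of the same length, 3.02% held the interferon-stimulated core, 9.96% the NF-kB consensus, 6.57% GAS and 6.57% AP-1. The 10 bases GGGAAATTCC that CXCL10 and CXCL11 have in common, searched after the sequences had been seen, occurred in 52 promoters or 0.148%. A match describes these letters only, and binding was not measured here.

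SRC1 siRNA arrays were higher than control arrays for 6 of the 7 chemokines, and CXCL9 was the exception. The gain in signal reached about 27.5-fold for CCL5 and 24.9-fold for CXCL11 in untreated cells, 9.53-fold for CCL22, 8.74-fold for CXCL10, 4.98-fold for CX3CL1 and 1.28-fold for CXCL16, taking the brightest probe set of each gene. In bulk samples such as these, a change in how many cells make a transcript cannot be told apart from a change in RNA per cell. For 10 of the 11 probe sets the lowest of the 6 SRC1-siRNA arrays lay above the highest of the 8 control-siRNA arrays, where 2.8% of all probe sets did so, and since this comparison chose the genes nothing is read from that share.

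**Figure D1:**
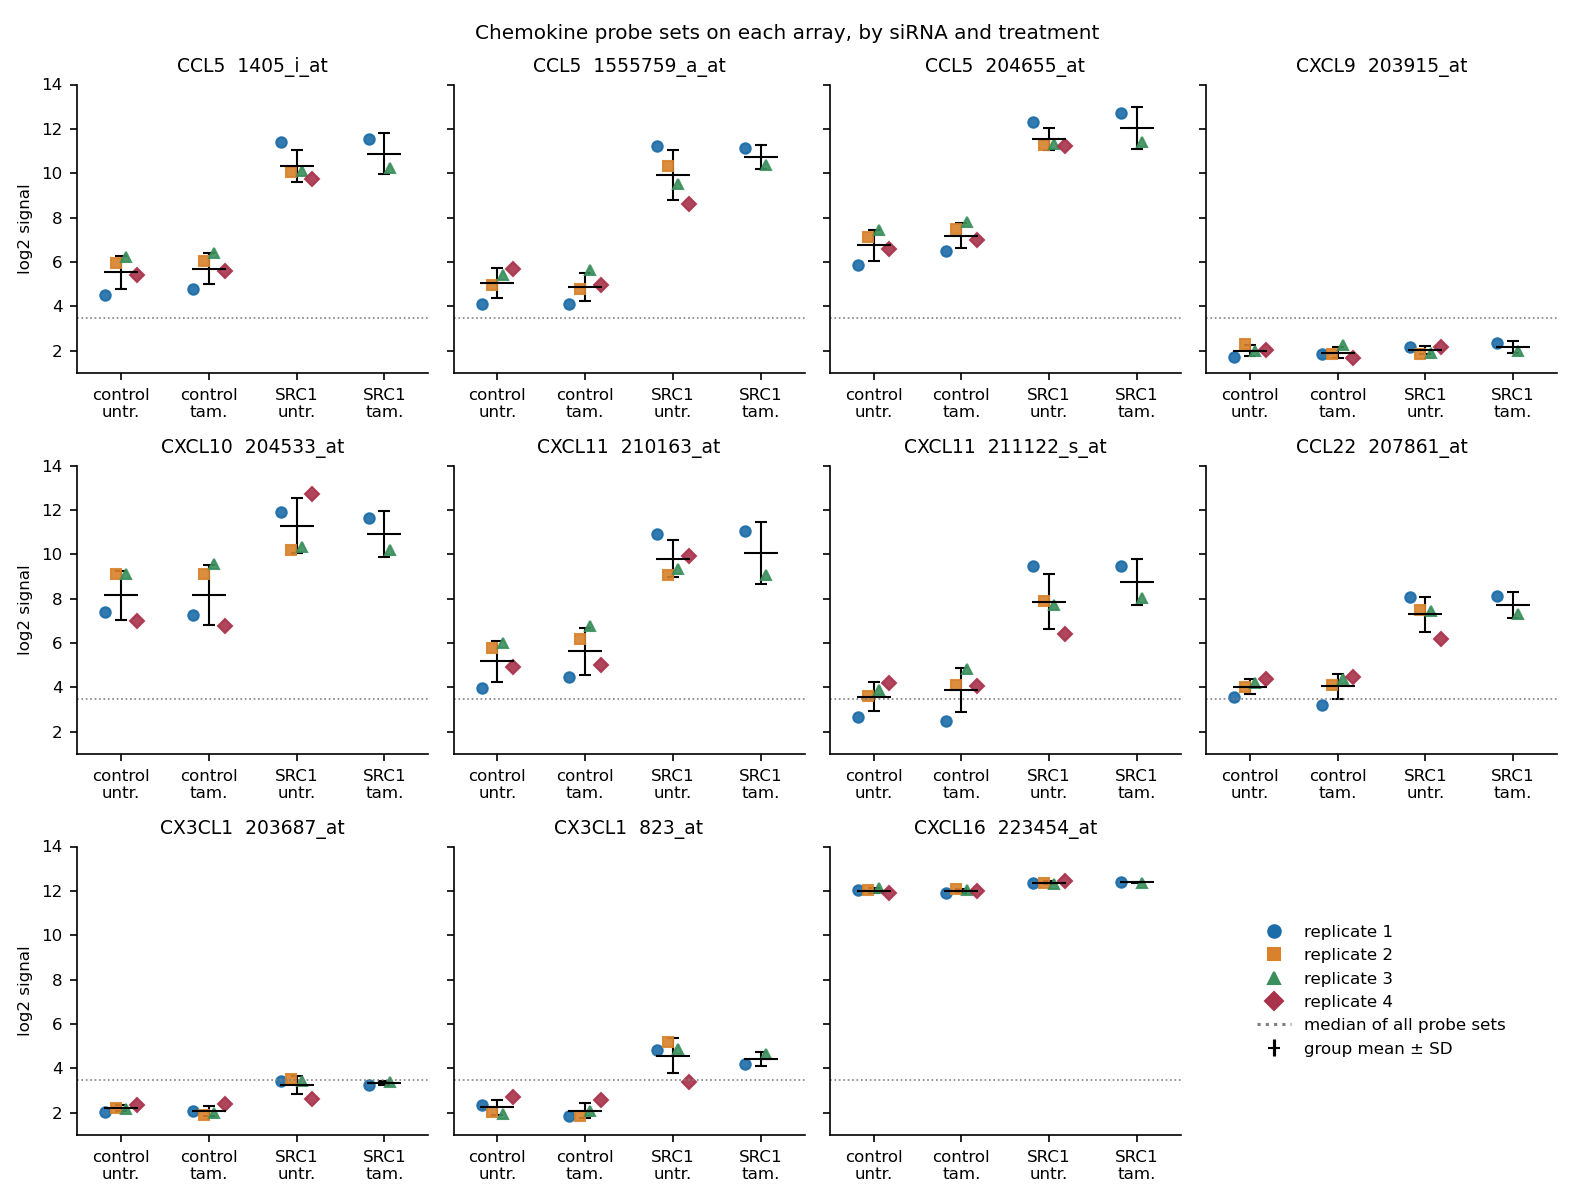
Log2 signal of each of the 11 chemokine probe sets on each of the 14 arrays, by siRNA and treatment, with symbols for the replicate number and bars for the group mean and SD. SRC1-siRNA arrays sit above all control arrays in every panel but CXCL9, whose values stay near 2, and the CXCL10 arrays spread widely, with 10.17 against 9.54 where the siRNAs come closest.

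Among the CXCR3 ligands, CXCL10 had a readily measured signal in control cells and a higher one after knockdown. It was 7.42, 9.09, 9.12 and 7.01 in control siRNA untreated replicates 1 to 4, and 7.26, 9.11, 9.54 and 6.77 in control siRNA with tamoxifen. With SRC1 siRNA it was 11.89, 10.21, 10.32 and 12.73 untreated and 11.65 and 10.17 with tamoxifen. The arrays of numbers 1 and 4 were thus the lowest of the controls and the highest after knockdown, and those of numbers 2 and 3 lay between. SRC1 and control arrays approached each other to 10.17 against 9.54. The difference of group means was 3.13 ± 0.74 (SE) in untreated cells and 2.74 ± 0.91 (SE) with tamoxifen. The latter fell to 1.70 when the arrays of number 1 were left out.

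CXCL11, which binds CXCR3 with the highest affinity of the 3 ligands, had the second largest difference of the 7 genes in untreated cells. Its brighter probe set, 210163_at, read 3.98, 5.77, 5.99 and 4.94 in control untreated cells and 4.49, 6.20, 6.76 and 5.03 in control cells with tamoxifen. After knockdown it read 10.92, 9.06, 9.33 and 9.93 untreated and 11.04 and 9.08 with tamoxifen, so the groups were separated by more than 2 units (9.06 against 6.76). The other probe set, 211122_s_at, read 2.65, 3.63, 3.87 and 4.19 in control untreated cells and 2.5, 4.10, 4.84 and 4.08 with tamoxifen, against 9.46, 7.88, 7.70 and 6.43 and then 9.48 and 8.02 after knockdown. The knockdown differences were 4.64 ± 0.60 and 4.28 ± 0.61 (SE) in untreated cells and 4.44 ± 0.74 and 4.87 ± 0.75 (SE) with tamoxifen. The 2 probe sets disagreed on replicate 4 of the untreated SRC1 siRNA group, the second highest of its group by 210163_at and the lowest by 211122_s_at.

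CXCL9, the third ligand of CXCR3, stayed at the floor. Its only probe set read 1.71, 2.30, 1.98 and 2.04 in control untreated cells, 1.87, 1.86, 2.27 and 1.68 in control cells with tamoxifen, 2.18, 1.88, 1.90 and 2.19 in SRC1 siRNA untreated and 2.35 and 1.97 in SRC1 siRNA with tamoxifen. All 4 groups overlapped. The knockdown difference was 0.03 (95% interval -0.29 to 0.35) in untreated cells and 0.24 (95% interval -0.15 to 0.64) with tamoxifen, on values where the array resolves little.

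CCL5, the T cell and monocyte attractant also known as RANTES, ranked second of 19775 genes by its largest difference in untreated cells and second in tamoxifen-treated cells. Its brightest probe set, 204655_at, read 5.86, 7.14, 7.47 and 6.58 in control untreated cells and 6.48, 7.47, 7.79 and 7.01 in control cells with tamoxifen. With SRC1 siRNA it read 12.31, 11.29, 11.33 and 11.24 untreated and 12.71 and 11.39 with tamoxifen. Knockdown arrays lay at least 3 units above any control array (11.24 against 7.79), and replicate 1 was at once the lowest of each control group and the highest of each SRC1 group.

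The other CCL5 probe sets gave differences of the same size. In the order of groups and replicates used above, 1405_i_at read 4.51, 5.94, 6.23 and 5.43, then 4.78, 6.03, 6.42 and 5.58, then 11.40, 10.07, 10.09 and 9.74, and finally 11.53 and 10.22. For 1555759_a_at the values were 4.12, 4.96, 5.43 and 5.70, then 4.10, 4.79, 5.63 and 4.96, then 11.22, 10.33, 9.51 and 8.61, and finally 11.12 and 10.35. Neither overlapped between the siRNAs. The knockdown difference in untreated cells was 4.78 ± 0.39, 4.80 ± 0.46 and 4.87 ± 0.50 (SE) by 204655_at, 1405_i_at and 1555759_a_at. In tamoxifen-treated cells it was 4.86 ± 0.48, 5.17 ± 0.56 and 5.87 ± 0.61 (SE).

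CCL22, which attracts regulatory T cells through CCR4, was near the array median of 3.47 in control cells. It read 3.57, 4.04, 4.19 and 4.36 in control untreated cells, 3.23, 4.09, 4.40 and 4.46 in control cells with tamoxifen, 8.08, 7.49, 7.43 and 6.17 in SRC1 siRNA untreated and 8.13 and 7.29 in SRC1 siRNA with tamoxifen. Replicate 4 was the highest control array in both treatments and the lowest SRC1 array, and even there the siRNAs did not overlap. The difference was 3.25 ± 0.37 (SE) in untreated cells and 3.66 ± 0.45 (SE) with tamoxifen.

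Of the transmembrane chemokines, CX3CL1 (fractalkine) was at the floor in control cells and above it after knockdown. Its brighter probe set, 823_at, read 2.35, 2.04, 1.95 and 2.70 in control untreated cells and 1.88, 1.87, 2.06 and 2.59 with tamoxifen, and 4.85, 5.18, 4.86 and 3.40 with SRC1 siRNA untreated and 4.19 and 4.65 with SRC1 siRNA and tamoxifen. By 203687_at the control arrays lay between 1.89 and 2.40, the untreated SRC1 arrays read 3.44, 3.53, 3.41 and 2.63, and the tamoxifen-treated SRC1 arrays 3.27 and 3.40. Replicate 4 was the lowest SRC1 array by both probe sets, with 3.40 against a highest control of 2.70 and 2.63 against 2.40. The differences in untreated cells were 2.32 ± 0.32 and 1.05 ± 0.17 (SE), and since the control values were at the floor they may understate the change.

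CXCL16, the other transmembrane chemokine, was bright in every group and differed by little between them. It read 12.02, 12.04, 12.12 and 11.89 in control untreated cells, 11.89, 12.08, 12.03 and 12.00 in control cells with tamoxifen, 12.38, 12.35, 12.32 and 12.44 in SRC1 siRNA untreated and 12.40 and 12.38 in SRC1 siRNA with tamoxifen. The SD within a group was at most 0.10, and all SRC1 arrays (lowest 12.32) lay above all control arrays (highest 12.12). The difference was 0.36 ± 0.06 (SE) in untreated cells and 0.39 ± 0.07 (SE) with tamoxifen.

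The median knockdown difference over the 11 probe sets, CXCL9 included, was 3.25 in untreated and 3.66 in tamoxifen-treated cells, beside -0.0038 and -0.024 over all probe sets. These contrasts chose the genes, so the values describe them and no more. Only 8 of the 11 had a mean over all arrays above the array-wide median, the probe sets of CXCL9 and CX3CL1 being below it. Ranked by the largest difference per gene in untreated and in tamoxifen-treated cells, CXCL11 was at 4 and 5, CCL22 at 20 and 21, CXCL10 at 24 and 50, CX3CL1 at 53 and 67, CXCL16 at 1382 and 1915, and CXCL9 at 10938 and 3711, of 19775 genes.

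The replicate numbers split the chemokines into different orders. In untreated cells the SRC1 array exceeded the control array of the same number by 4.47, 1.12, 1.21 and 5.71 for CXCL10 at numbers 1 to 4, and by 4.51, 3.45, 3.24 and 1.81 for CCL22. CXCL10 therefore differed most at number 4, where CCL22 differed least. CX3CL1 was also least different at number 4, with 2.5, 3.14, 2.91 and 0.71 by 823_at and 1.39, 1.29, 1.26 and 0.26 by 203687_at. CXCL16 had its largest difference at number 4, with 0.35, 0.31, 0.20 and 0.56.

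CCL5 and CXCL11 gave 1 order or the other according to the probe set. CCL5 differed by 6.45, 4.15, 3.86 and 4.66 by 204655_at, by 6.89, 4.13, 3.86 and 4.31 by 1405_i_at and by 7.10, 5.37, 4.09 and 2.91 by 1555759_a_at. CXCL11 differed by 6.93, 3.29, 3.34 and 4.99 by 210163_at and by 6.80, 4.25, 3.83 and 2.24 by 211122_s_at. In each gene 1555759_a_at or 211122_s_at placed number 4 last, where the other probe sets placed it second, and number 1 was the largest by all 5. CXCL9 had no common sign, with 0.46, -0.42, -0.08 and 0.15.

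Tamoxifen-treated cells offered only numbers 1 and 3. Number 1 again differed more than number 3 for CCL5 (6.23 against 3.60 by 204655_at), CXCL10 (4.39 against 0.63), CXCL11 (6.55 against 2.32 by 210163_at), CCL22 (4.90 against 2.89) and CXCL16 (0.50 against 0.34). CX3CL1 differed slightly more at number 3 (2.32 against 2.58 by 823_at). Leaving out number 4 altogether moved the untreated difference of CXCL10 to 2.27, that of CCL22 to 3.73 and that of CX3CL1 by 823_at to 2.85.

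**Figure D2:**
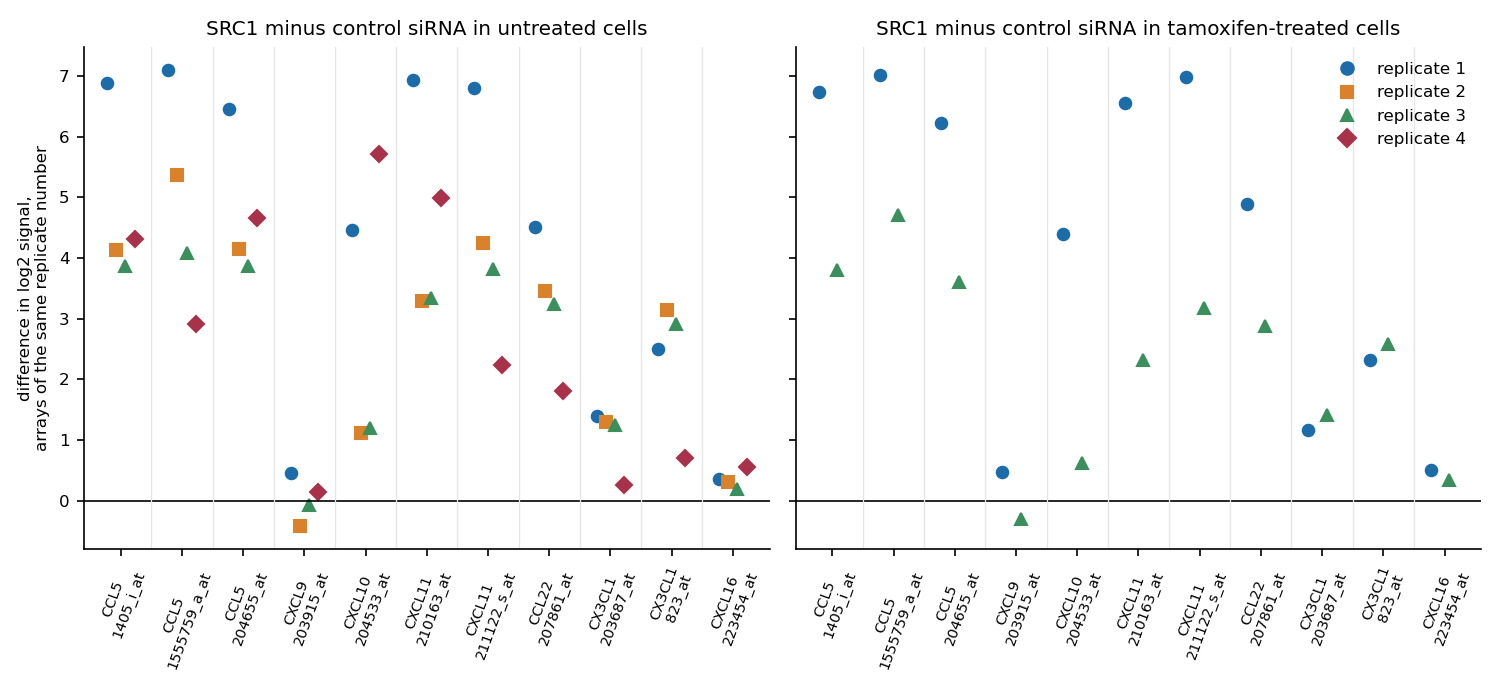
Difference in log2 signal between the SRC1-siRNA and the control-siRNA array of the same replicate number, for each chemokine probe set, in untreated cells (left, numbers 1 to 4) and tamoxifen-treated cells (right, numbers 1 and 3). Number 4 is the highest point for CXCL10 and CXCL16 and the lowest for CCL22 and CX3CL1.

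Tamoxifen for 2 hours moved none of the 11 probe sets past the threshold, a limma adjusted p of 0.05 over all probe sets. In control-siRNA cells the limma adjusted p-values ran from 0.639 for CCL5 204655_at to 0.998 for CXCL10, and 0.0714% of all probe sets were called higher and 0.0916% lower. In SRC1-siRNA cells they ran from 0.543 for CCL5 1555759_a_at to 0.948 for CXCL16, with 0.905% of all probe sets called higher and 0.604% lower. None of the 11 had an unadjusted p under 0.05 in either in this fit, which has no term for the replicate number, where 8585 and 9178 of all probe sets did. The median tamoxifen difference over the 11 was 0.0058 in control and 0.25 in SRC1-siRNA cells, beside 0.0061 and -0.016 over all probe sets. The differences in SRC1-siRNA cells set tamoxifen arrays of numbers 1 and 3 against untreated arrays of numbers 1 to 4. They therefore also hold differences between the numbers, and values by number are given below.

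The intervals show how large a response could have been missed. For CXCL16 the tamoxifen difference in control cells was -0.02 (95% interval -0.14 to 0.11), and in SRC1-siRNA cells 0.01 (95% interval -0.14 to 0.17). For CXCL10 it was 0.01 (95% interval -1.65 to 1.67) in control cells and -0.38 (95% interval -2.41 to 1.66) in SRC1-siRNA cells, so changes of over 2-fold either way lie within these intervals, which do not take the replicate number into account. CCL5 by 204655_at stood at 0.43 (95% interval -0.45 to 1.31) in control cells and 0.51 (95% interval -0.57 to 1.59) in SRC1-siRNA cells. For CXCL11 by 210163_at the values were 0.45 (95% interval -0.90 to 1.79) and 0.25 (95% interval -1.39 to 1.90). CCL22 gave 0.01 (95% interval -0.81 to 0.83) and 0.41 (95% interval -0.59 to 1.42), and CX3CL1 by 823_at gave -0.16 (95% interval -0.87 to 0.55) and -0.15 (95% interval -1.02 to 0.72).

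Arrays of the same number showed small tamoxifen differences beside the spread within groups. CCL5 204655_at was higher in the tamoxifen array at each number in control cells, by 0.63, 0.33, 0.32 and 0.43, and in SRC1-siRNA cells by 0.40 and 0.06 at numbers 1 and 3. CXCL11 210163_at was higher by 0.51, 0.43, 0.77 and 0.09 in control cells, and by 0.13 and -0.25 in SRC1-siRNA cells. CXCL10 changed sign among the control arrays, with -0.16, 0.02, 0.43 and -0.25. In SRC1-siRNA cells CXCL10 differed by -0.24 and -0.15 at numbers 1 and 3, and CCL22 by 0.05 and -0.14. There CCL5 differed by 0.13 and 0.13 by 1405_i_at and by -0.10 and 0.84 by 1555759_a_at. CXCL11 211122_s_at differed by 0.03 and 0.33, and CX3CL1 823_at by -0.66 and -0.21.

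The interaction, which asks whether the knockdown difference itself depended on tamoxifen, was not called for any of the 11, with adjusted p from 0.542 to 0.997, where 0.134% of all probe sets were called higher and 0.146% lower. No member had an unadjusted p under 0.05, against 9444 of all probe sets. The median over the 11 was 0.19, beside -0.020 over all probe sets, and SRC1 siRNA with tamoxifen entered it by numbers 1 and 3 only. The largest estimate was 1.0 ± 0.79 (SE) for CCL5 1555759_a_at (95% interval -0.76 to 2.76), and the narrowest was 0.03 (95% interval -0.17 to 0.23) for CXCL16. The knockdown differences of the 2 treatments thus could not be told apart at this number of arrays in this fit, which has no term for the replicate number. Its 95% intervals were wider than 1 unit on each side for all but CXCL9, CXCL16 and 1 probe set of CX3CL1. With a term for the number that both siRNAs share, the SE for CXCL10 was 1.32, beside 1.18 here. The CXCL10 order of the numbers was different under the 2 siRNAs, which a shared term cannot take up. By arrays of the same number the CXCL10 knockdown difference was 4.47 untreated and 4.39 with tamoxifen at number 1. At number 3 it was 1.21 and 0.63.

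**Figure D3:**
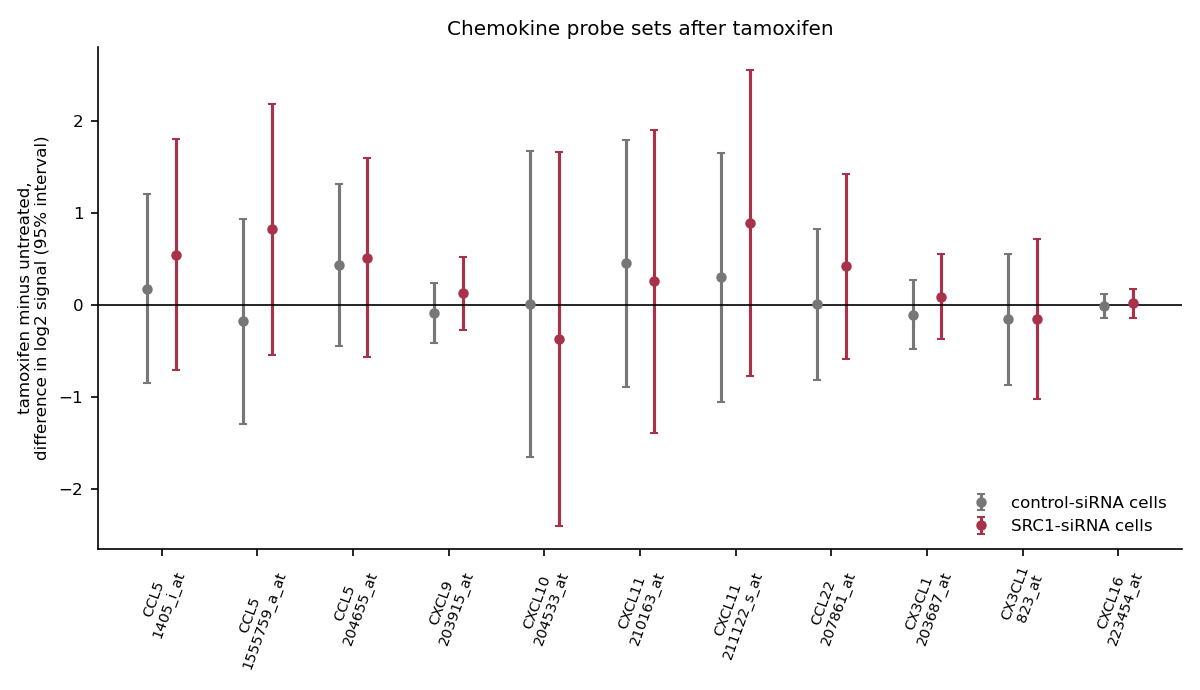
Tamoxifen minus untreated difference in log2 signal of each chemokine probe set in control-siRNA cells (grey) and SRC1-siRNA cells (red). Bars are 95% intervals from the SE of the limma fit over 14 arrays and its residual degrees of freedom. Every interval includes 0, and the intervals are narrowest for CXCL16 and widest for CXCL10 in SRC1-siRNA cells.

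Other genes with the same pattern over the 14 arrays were ranked by the root mean square difference of log2 values, each gene being centred on its control untreated mean, among 23010 probe sets with 1 gene name and a mean above the median. Closest to CCL5 204655_at were the MHC class II chain HLA-DRA (0.63), the class II invariant chain CD74 (0.63) and the acyltransferase PLAAT4 (0.69). Among the chemokines themselves CXCL11 210163_at was closer to it still, at 0.39. Closest to CXCL11 were interferon beta, IFNB1 (0.57), PLAAT4 (0.72) and the oligoadenylate synthetase-like OASL (0.75), and its own second probe set stood at 0.68.

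CXCL10 was matched more tightly, by the antiviral GTPase MX2 (0.38), OASL (0.38) and the interferon lambda IFNL2 (0.40). Nearest to CCL22 were granzyme A, GZMA (0.20), the adhesion molecule CEACAM1 (0.20) and complement C3 (0.23). CX3CL1 823_at was nearest to the small GTPase RHEBL1 (0.27), the transcription factor SP6 (0.28) and the adaptor GRB10 (0.29). Without the 3 arrays of number 4, the nearest gene was CD74 for CCL5 (0.25), MX2 again for CXCL10 (0.16) and the complement factor CFB for CXCL11 (0.47). CCL22 then kept its 3 partners and so did CX3CL1. The distances describe shared size and order of values over arrays of 4 groups and carry no test.

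The rest of the chemokine system was read from lists of receptors, processing enzymes, regulators and other chemokines, each gene by its brightest probe set. As a background for their counts, the knockdown was called higher at a limma adjusted p of 0.05 for 4.99% of all probe sets and lower for 5.36% in untreated cells, and for 5.76% and 7.7% in tamoxifen-treated cells. Calls were more frequent among bright probe sets. Of the 27306 above the median signal, tested alone, 4863 were called either way in untreated and 5745 in tamoxifen-treated cells. Above that median stood 14 of 15 regulators, 3 of 4 enzymes and 4 of 7 neutrophil chemokines. None of 8 measured receptors passed in untreated cells and 0 had an unadjusted p under 0.05 (median difference 0.021), the smallest p being that of CXCR3 at -0.09 (adjusted p = 0.277, limma). In tamoxifen-treated cells CCR1 (0.45, adjusted p = 0.0321) and the scavenging receptor ACKR3 (0.23, adjusted p = 0.0308) were higher of 8 (median 0.057). Of the 8 only ACKR3 was above the median signal. Of 4 enzymes that shed or trim chemokines, ADAM17, a sheddase of CX3CL1 and CXCL16, was higher in untreated cells (0.34 ± 0.05, adjusted p = 0.00149) and in tamoxifen-treated cells (0.23, adjusted p = 0.0298), with medians of 0.089 and 0.078.

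Of 15 measured transcription factors and kinases of the interferon and NF-kB pathways, 5 were higher in untreated cells and none lower (median 0.13). IRF1, an interferon-induced activator, was higher by 1.17 ± 0.27 (SE, adjusted p = 0.0158) and IRF7, which drives interferon genes, by 0.88 ± 0.25 (SE, adjusted p = 0.0417). RELB of the NF-kB family was higher by 0.33 (adjusted p = 0.0186), IRF8 by 0.21 (adjusted p = 0.0371) and the kinase TBK1 by 0.21 (adjusted p = 0.0359). The IRF8 means, 2.46 with control and 2.67 with SRC1 siRNA, were near the floor. Of these 5, only IRF1 passed whichever single array was left out. IRF7 did not pass without control untreated 1 or 4, control tamoxifen 2 or 4, or SRC1 untreated 1, 2 or 4, with adjusted p up to 0.100. RELB did not pass without control untreated 1 or 4 or SRC1 untreated 2 or 3 (up to 0.0557), IRF8 without any of control untreated 1 to 4 or SRC1 untreated 2 or 3 (up to 0.109), and TBK1 without any of control untreated 1 to 4 or SRC1 untreated 1 or 2 (up to 0.103). In tamoxifen-treated cells IRF1 (1.19, adjusted p = 0.0322) and IRF5 (0.39, adjusted p = 0.0361) were higher and IRF8 lower (-0.25, adjusted p = 0.0395), with a median of 0.23. IRF8 was again near the floor, at 2.60 with control and 2.36 with SRC1 siRNA.

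Of 20 other chemokines that attract lymphocytes or monocytes, 3 were higher and 1 lower in untreated cells, with a median difference of 0.011. CCL20, the ligand of CCR6, was higher by 1.21 ± 0.21 (SE, adjusted p = 0.00369), from 2.72 to 3.93. CCL17, which shares the receptor CCR4 with CCL22 and lies beside CX3CL1 on chromosome 16, was higher by 0.81 ± 0.23 (SE, adjusted p = 0.0365) and the monocyte and T cell attractant CCL4 by 0.65 ± 0.17 (SE, adjusted p = 0.0261). CCL8 was lower by 0.42 (adjusted p = 0.0063), at the floor. CCL17, from 2.36 to 3.17, and CCL4, from 2.27 to 2.92, also started near the floor. Of the 20 genes 3 had a mean above the median signal. The call of CCL17 was lost without control untreated 1 or 2 or SRC1 untreated 1 or 2 (adjusted p up to 0.106), and that of CCL4 without control untreated 1, 2 or 3 or SRC1 untreated 1 or 3 (up to 0.0748). In tamoxifen-treated cells CCL17 (1.41 ± 0.28, adjusted p = 0.00662) and CCL26 (0.26, adjusted p = 0.021) were higher and none was lower, with a median of -0.023. CCL26 was at the floor, at 1.98 with control and 2.24 with SRC1 siRNA.

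Of 7 neutrophil-attracting chemokines, which act on CXCR1 and CXCR2, 5 were higher in untreated cells and none was lower (median 1.09). CXCL8 was higher by 3.28 ± 0.65 (SE, adjusted p = 0.00708), from 6.94 to 10.22, CXCL1 by 1.93 ± 0.26 (SE, adjusted p = 9.39e-04), CXCL2 by 1.69 ± 0.26 (SE, adjusted p = 0.00194) and CXCL3 by 1.09 ± 0.16 (SE, adjusted p = 0.0015). Each of these 4 passed whichever array was left out. In tamoxifen-treated cells CXCL2 (1.68, adjusted p = 0.00592), CXCL1 (1.33, adjusted p = 0.0167) and CXCL3 (0.99, adjusted p = 0.00736) were higher of 7 (median 0.99), and CXCL8 stood at 2.10 (adjusted p = 0.0995). No gene of these 5 lists passed in the tamoxifen contrasts or the interaction by limma, and at most 4 genes of a list had an unadjusted p under 0.05 there.

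The calls in tamoxifen-treated cells rest on 2 SRC1 arrays, and each of the 11 was lost without at least 1 of them. Without SRC1 tamoxifen 1 the adjusted p was 0.335 for CCR1, 0.154 for ADAM17, 0.241 for IRF1, 0.105 for CCL17, 0.163 for CXCL1, 0.096 for CXCL2, whose difference was then 1.0, and 0.0554 for CXCL3. Without SRC1 tamoxifen 3 it was 0.135 for ACKR3, 0.218 for IRF5, 0.265 for IRF8 and 0.134 for CCL26. Leaving out control tamoxifen arrays also ended the calls of CCR1 (1 or 2), ACKR3 (2), ADAM17 (1 or 2), IRF1 (1), IRF5 (2, 3 or 4) and IRF8 (1 to 4), and leaving out control untreated 2 ended that of IRF8.

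**Figure D4:**
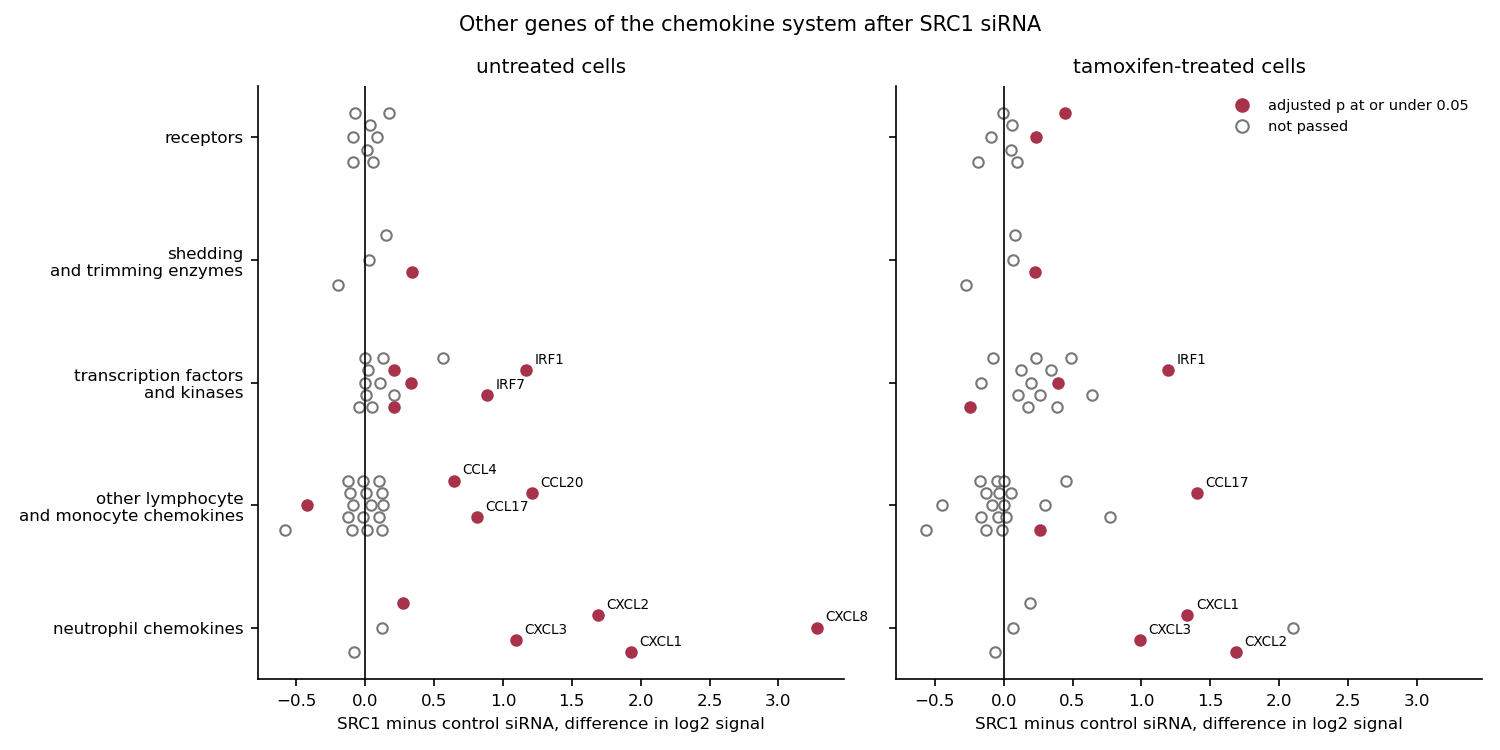
SRC1 minus control difference in log2 signal of each measured gene of 5 lists of the chemokine system, in untreated (left) and tamoxifen-treated cells (right). Filled points passed an adjusted p of 0.05, and the points furthest to the right on the left panel are the neutrophil chemokines CXCL8, CXCL1 and CXCL2 at 3.28, 1.93 and 1.69.

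Markers of other cells that make or receive these chemokines were mostly below the median signal. Of 11 T and natural killer cell markers only CD8A was above the median signal in any group, at 9.0 in control untreated cells, and it was lower after knockdown (-0.40, adjusted p = 0.0391, and -0.47, adjusted p = 0.0383, with tamoxifen). The other 10, CD3D, CD3E and CD2 among them, were below it in each group. Granzyme A (GZMA), named above as nearest to CCL22, was not on this list. It was higher after knockdown by 3.21 in untreated and 3.83 in tamoxifen-treated cells. Of the 11 listed markers CD3G was also lower after knockdown in tamoxifen-treated cells (-0.28, adjusted p = 0.0385), with group means of 1.81 to 2.09 near the floor. In that contrast 6 of the 11 had an unadjusted p under 0.05. The summed log2 level of the list was 28.5 to 29.3 in control untreated, 29.0 to 29.5 in control tamoxifen, 28.7 to 28.9 in SRC1 untreated and 28.1 to 28.3 in SRC1 tamoxifen arrays. Of 7 myeloid markers LYZ was above the median in both SRC1 groups and ITGAM in SRC1 siRNA with tamoxifen (0.86 higher than its control, adjusted p = 0.0253), with sums of 17.6 to 18.3, 17.4 to 17.9, 18.0 to 19.0 and 18.1 to 19.8 in the same order. Of 4 endothelial markers PECAM1 was above it in SRC1 untreated cells (0.73 higher, adjusted p = 0.0255), and CDH5 was lower in SRC1 siRNA with tamoxifen than in its control (-0.36, adjusted p = 0.00273) and than in SRC1 siRNA untreated (-0.36, adjusted p = 0.014), with sums of 10.4 to 10.7, 10.2 to 10.7, 10.8 to 11.7 and 9.73 to 10.2. Of the luminal markers KRT8 was higher (0.31, adjusted p = 0.0351) and CDH1 lower (-0.27, adjusted p = 0.00864) after knockdown in untreated cells. The part of the T cell, myeloid and endothelial markers in the chemokine differences was not tested.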

How the data were processed

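Per the labels' protocols, total RNA was DNase-treated, amplified (NuGEN Ovation) and biotin-labelled. The deposited values are log2 signals made by the authors, 1 per probe set and array, the base being inferred from their range. How they were background-corrected, normalized and summarized is not given in the sources used here. R 2.9.2 is the single tool in the submitters' processing notes. Precision is limited by the number of arrays.

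Values were used as deposited. Of 54675 probe sets 62 array controls were left out. Of the remaining 54613, the platform annotation gave 1 gene symbol to 41091, several to 1801 and none to 11721. Group means (4, over 14 arrays) were fitted with lmFit and eBayes of limma 3.58.1 (R 4.3.3, statmod 1.5.0), with two-sided p adjusted by Benjamini-Hochberg over all 54613 and a threshold of 0.05, and the code was tested on simulated data. A list gene was read from its brightest probe set. The chemokines and lists were chosen with earlier results of these data known. Named are the 7 chemokines, NCOA1, up to 4 passing members of a list by size (else the smallest p), TBK1 as the only other regulator that passed, markers that passed or stood above the median signal, and the 3 nearest genes of chemokines spanning over 2 units. Alternatives were omitting dim probe sets, quantile normalization, median centring, array weights, a trended robust eBayes, only the arrays compared, the replicate number as a block, and omitting each array or number. Likeness without number 4 was added after seeing the data.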

Additional observations from a re-analysis of the deposited data

Results flagged for a closer look

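In 36 checks of a group of 4 arrays for 1 array far from the rest, 2 stood out, and chance marks about 1 in 20 groups. CCL5 204655_at was at 12.3 in SRC1 siRNA untreated replicate 1, while the other 3 arrays lay between 11.24 and 11.33, and its gap was 0.911 of the range of the group. CX3CL1 203687_at was at 2.63 in SRC1 siRNA untreated replicate 4, while the other 3 lay between 3.41 and 3.53, a gap of 0.872 of the range.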

How the results depend on the processing

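The number of chemokine probe sets called was 0 for both tamoxifen contrasts and the interaction under every alternative run. Counts over all probe sets moved more. Tamoxifen in control cells gave 89 calls as reported, 35 with median centring, 232 with array weights and 2 with only the arrays compared. In SRC1-siRNA cells it gave 824, and 246 without dim probe sets, 371 with array weights and 109 with only the arrays compared. The interaction gave 153, and 23 without dim probe sets, and the knockdown with tamoxifen 7350, and 4025 with only the arrays compared. Leaving out single arrays gave 3626 to 5750 for the knockdown in untreated cells (5653 as reported), 1390 to 7215 with tamoxifen, 1 to 68 for tamoxifen in control and 3 to 879 in SRC1-siRNA cells, and 7 to 346 for the interaction. Without all arrays of number 1, 2, 3 or 4 the counts were 3066, 1953, 3071 and 4447 for the knockdown in untreated and 1183, 3587, 2742 and 5991 in tamoxifen-treated cells, 11, 0, 0 and 24 for tamoxifen in control and 7, 119, 307 and 159 in SRC1-siRNA cells, and 3, 0, 4 and 0 for the interaction. The difference of NCOA1 in untreated cells was -1.16 to -1.40 without single arrays, each with the smallest p that 4 against 3 allows, 0.0571. The cause was not tested.

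Over all probe sets same-numbered arrays did not deviate together, and over 18 pairs the correlation of deviations from group means was -0.585 to -0.0421. Some chemokines nevertheless kept 1 order of the numbers in both control groups. These were CXCL10, CCL22, CCL5 by 204655_at and 1405_i_at, and CXCL11 by 210163_at. Numbers differed less than independent arrays would, with a median F of 0.0428 beside 0.871, and if such differences had been removed before deposit, the p-values printed above would be too small. With the replicate number as a block, calls over all probe sets were 2154 and 1224 for the knockdown in untreated and tamoxifen-treated cells, 1 and 0 for tamoxifen in control and SRC1-siRNA cells and 0 for the interaction. No chemokine probe set was called for tamoxifen or the interaction. Among list genes in untreated cells, ADAM17, CCL8, CCL20, CXCL8, CXCL1, CXCL2 and CXCL3 still passed and the other list genes named as called did not. In tamoxifen-treated cells CXCL2 and CXCL3 did. A block among the 8 control arrays only, chosen after seeing the data, gave 0 calls for tamoxifen, with 5202 of all probe sets and 3 of the 11 under an unadjusted p of 0.05. These were CCL5 204655_at (0.43 ± 0.08, limma adjusted p = 0.387), CXCL11 210163_at (0.45 ± 0.11, limma adjusted p = 0.410) and CCL5 1405_i_at (0.17 ± 0.07, limma adjusted p = 0.518), each with its SE. CXCL10 stood at 0.01 ± 0.12 (SE), beside an SE of 0.74 in the fit without the number.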
